A study of Mus musculus with 14 samples.

Results

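Acetyl-CoA outside the mitochondria is made from citrate by ATP-citrate lyase (ACLY) or from acetate by acyl-CoA synthetase short-chain family member 2 (ACSS2). The transcripts of 8 genes around these reactions were examined in mouse hepatocellular carcinoma (HCC) cells: Acly, the acetyl-CoA synthetase genes Acss1, Acss2 and Acss3, and the carrier genes Slc25a1, Slc13a5, Slc13a3 and Slc33a1. They were chosen by symbol, for the reactions they are known to carry, from the 24972 gene symbols with deposited values, and all 8 symbols were listed. Poly(A) RNA had been sequenced from cells grown for 24 hours in DMEM with 10% calf serum.

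All 4 genotypes descend from mouse Acly flox/flox HCC cells, derived from liver tumours induced with diethylnitrosamine, and every line was selected with puromycin. WT (line D42V, 4 libraries) carried the floxed alleles intact and an empty LentiCRISPR v2 vector. ACLY KO (line D42C4V, 4 libraries) was made with adenoviral Cre, came from a single-cell clone and carried the same empty vector. ACSS2 KO (line D42 Sg2-3, 3 libraries) carried LentiCRISPR v2 with a guide RNA to Acss2 and was a single-cell clone. DKO1 (line D42C4 Sg2-2, 3 libraries) was a single-cell clone made from the ACLY-deficient cells with a guide to Acss2. Each knockout genotype is therefore 1 clone, so genotype and clone cannot be told apart, and the sequencing was not among the experiments described as repeated independently. The study describes the points of its plots as biological replicates without saying how the libraries of a genotype were kept apart, so the p-values measure the spread between these libraries, part of which may be technical.

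Citrate leaves the mitochondrion through the citrate carrier, the product of Slc25a1, and ACLY splits it in the cytosol and nucleus into acetyl-CoA and oxaloacetate. ACSS2 activates acetate in the same compartments, whereas the products of Acss1 and Acss3 are mitochondrial enzymes, and that of Acss3 is known for its preference for propionate. Slc13a5 and Slc13a3 encode sodium-coupled carriers that take up citrate and dicarboxylates from outside the cell, the first of them prominent in liver, and Slc33a1 encodes the carrier that brings acetyl-CoA into the endoplasmic reticulum. ACLY and ACSS2 are known targets of the sterol regulatory element-binding proteins, and acetyl-CoA from both feeds fatty acid synthesis, sterol synthesis and histone acetylation.

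The stretches before the RefSeq start sites are shown for the enzyme genes named in the genotypes and for the citrate carrier, whose transcripts carried the differences described below. They are the 250 bases 5′ of the start on the gene's own strand (GRCm38.p6), with matches to 3 motifs on either strand in capitals. The E-box was searched as CACGTG. The NF-Y box was searched as CCAAT, which reads ATTGG when it lies on the other strand. The GC box was searched as GGGCGG, which then reads CCGCCC.
Acly promoter, chr11:100528001-100528250, minus strand: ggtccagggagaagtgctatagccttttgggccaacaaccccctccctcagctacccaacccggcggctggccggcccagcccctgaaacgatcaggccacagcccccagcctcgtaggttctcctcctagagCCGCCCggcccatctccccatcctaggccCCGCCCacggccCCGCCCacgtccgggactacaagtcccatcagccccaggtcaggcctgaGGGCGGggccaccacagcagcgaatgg
Acss2 promoter, chr2:155517793-155518042, plus strand: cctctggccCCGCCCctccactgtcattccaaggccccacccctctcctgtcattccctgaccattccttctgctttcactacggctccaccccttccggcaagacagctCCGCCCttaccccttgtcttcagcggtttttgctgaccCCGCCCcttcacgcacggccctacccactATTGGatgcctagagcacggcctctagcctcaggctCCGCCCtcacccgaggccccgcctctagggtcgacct
Slc25a1 promoter, chr16:17928220-17928469, minus strand: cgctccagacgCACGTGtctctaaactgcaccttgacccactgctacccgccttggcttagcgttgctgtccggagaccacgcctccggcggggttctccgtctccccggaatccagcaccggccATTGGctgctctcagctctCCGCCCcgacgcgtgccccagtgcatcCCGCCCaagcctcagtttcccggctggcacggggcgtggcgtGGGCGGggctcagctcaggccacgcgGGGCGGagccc
Of these, the Acly stretch held 4 GC boxes, the Acss2 stretch 4 GC boxes and 1 NF-Y box, and the Slc25a1 stretch 1 E-box, 1 NF-Y box and 4 GC boxes. Among 32851 promoters of the same length, 32.7% held a GC box, 33.8% an NF-Y box and 6.02% an E-box. The sterol regulatory element core TCACNCCAC, held by 1.05% of them, was not in the windows of these genes, nor in those found for Acss1, Slc13a3, Slc33a1 and Slc13a5. Windows were found for 7 of the 8 genes. Both strands were searched, and a match describes letters in a window and not a bound site. The lack of a match to so rare an exact pattern in 250 bases does not show that such elements are absent.

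The deposited values are read counts per gene divided by DESeq normalization factors, here called normalized counts. Their totals per library were between 23565707 and 26946164, and the depth implied by taking the commonest low value of each library as 1 read was between 19164067 and 33522192 reads. By that estimate 3 reads correspond to between 2.15 and 4.00 normalized counts. It is approximate, since the factor varies between genes of a library and only 20.7% to 63.4% of low values lay within 0.5% of whole multiples of it, so numbers of reads given below are approximate too. In each genotype 1 library had a negative Spearman correlation, across 12609 genes, between transcript length and the deviation from the genotype mean. It was -0.71 in DKO1 replicate 4, -0.62 in WT replicate 2, -0.60 in ACLY KO replicate 4 and -0.55 in ACSS2 KO replicate 1, and between 0.05 and 0.67 in the other libraries. The epithelial keratins Krt8 and Krt18 were abundant in all libraries. Apoa1, which encodes a hepatocyte apolipoprotein, was listed at 0 in 9 of 14 libraries. Mean Alb was between 11.3 and 134, mean Afp between 34.3 and 210 and mean Apob between 30.1 and 282, with Afp and Apob highest and Alb lowest in DKO1. Keratins were thus abundant, while the secreted-protein markers of hepatocytes were low beside them and did not move together. Other lineage markers moved with genotype: the summed level of 3 endothelial markers was between 77.1 and 90.6 in ACLY KO and between 17.5 and 27.1 in WT. That of 4 fibroblast and stellate markers was between 3326 and 3671 in ACLY KO, 4498 and 5374 in ACSS2 KO, 2025 and 2321 in WT and 1777 and 1958 in DKO1. Members of these lists moved in opposite directions: in ACLY KO mean Pecam1 was 61.7 against 7.51 in WT and mean Kdr 2.21 against 12.9, and mean Col1a1 was 2454 against 428 while mean Acta2 was 630 against 1657. Mean Col3a1 was 587 in DKO1 against 80.6 in WT, although the fibroblast sum was lower there. The 3 cholangiocyte markers summed to between 4749 and 5270 in ACLY KO and between 9685 and 15766 in WT. In DKO1 the cholangiocyte sum lay between 4270 and 7674 and the endothelial sum between 40.2 and 51.2. In ACSS2 KO they lay between 9693 and 10963 and between 10.5 and 18.3. The sum of 8 hepatocyte markers, mostly keratin, lay between 48142 and 65067 in WT and was lower in each knockout library, at most 45287. The 4 leukocyte markers summed to between 39.8 and 76.2 in WT, 60.4 and 101 in ACLY KO, 26.3 and 53.3 in ACSS2 KO and 82.7 and 132 in DKO1, and Adgre1, a macrophage marker, was listed at 0 in 13 of 14 libraries. The part of these markers in the differences below was not tested, and in bulk RNA fewer cells of a type and less RNA per cell cannot be told apart.

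Acly is the gene that Cre recombination targets. It had 6052, 5461, 6435 and 6251 normalized counts in the 4 WT libraries and 5542, 5748 and 5762 in ACSS2 KO. In ACLY KO it had 1084, 971, 984 and 965, and in DKO1 it had 956, 949 and 931. No ACLY-deficient library (ACLY KO or DKO1) came near an ACLY-proficient library (WT or ACSS2 KO). The values are totals over the gene, which lies on chr11:100476353-100528000 (GRCm38), so reads from exons outside the loxP sites are counted and the remaining level is not a measure of intact transcript. DKO1 and ACLY KO differed by -0.08 in log2 (95% interval -0.22 to 0.06, adjusted p = 0.39 from limma, as for all adjusted p-values here), with a turn in sign to 0.0068 when transcript length was corrected for.

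Acss2, on chr2:155517948-155585724, is the gene the guide RNA targets, and its transcript took 4 separate levels. It had 239, 252, 233 and 224 normalized counts in WT and 787, 660.4, 739 and 685 in ACLY KO. It had 127, 135 and 135 in ACSS2 KO and 578, 571 and 455 in DKO1. No library of any genotype overlapped a library of another, in the order ACSS2 KO, WT, DKO1, ACLY KO. In DKO1, which was made with a guide to Acss2, the transcript was thus above WT in each of 3 libraries. Editing at a guide site need not remove the transcript, so these values do not check the loss of the protein. Several annotated genes overlap Acss2, among them Ggt7 and Gss on the opposite strand. The library kit keeps strand, but whether counting used it is not stated. Ggt7 had a mean of 29.0 in WT, 161 in ACLY KO and 40.0 in DKO1, and Gss 693, 955 and 1633, so Ggt7 moved in the same directions as Acss2 at a lower level, while Gss was highest in DKO1.

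**Figure D1:**
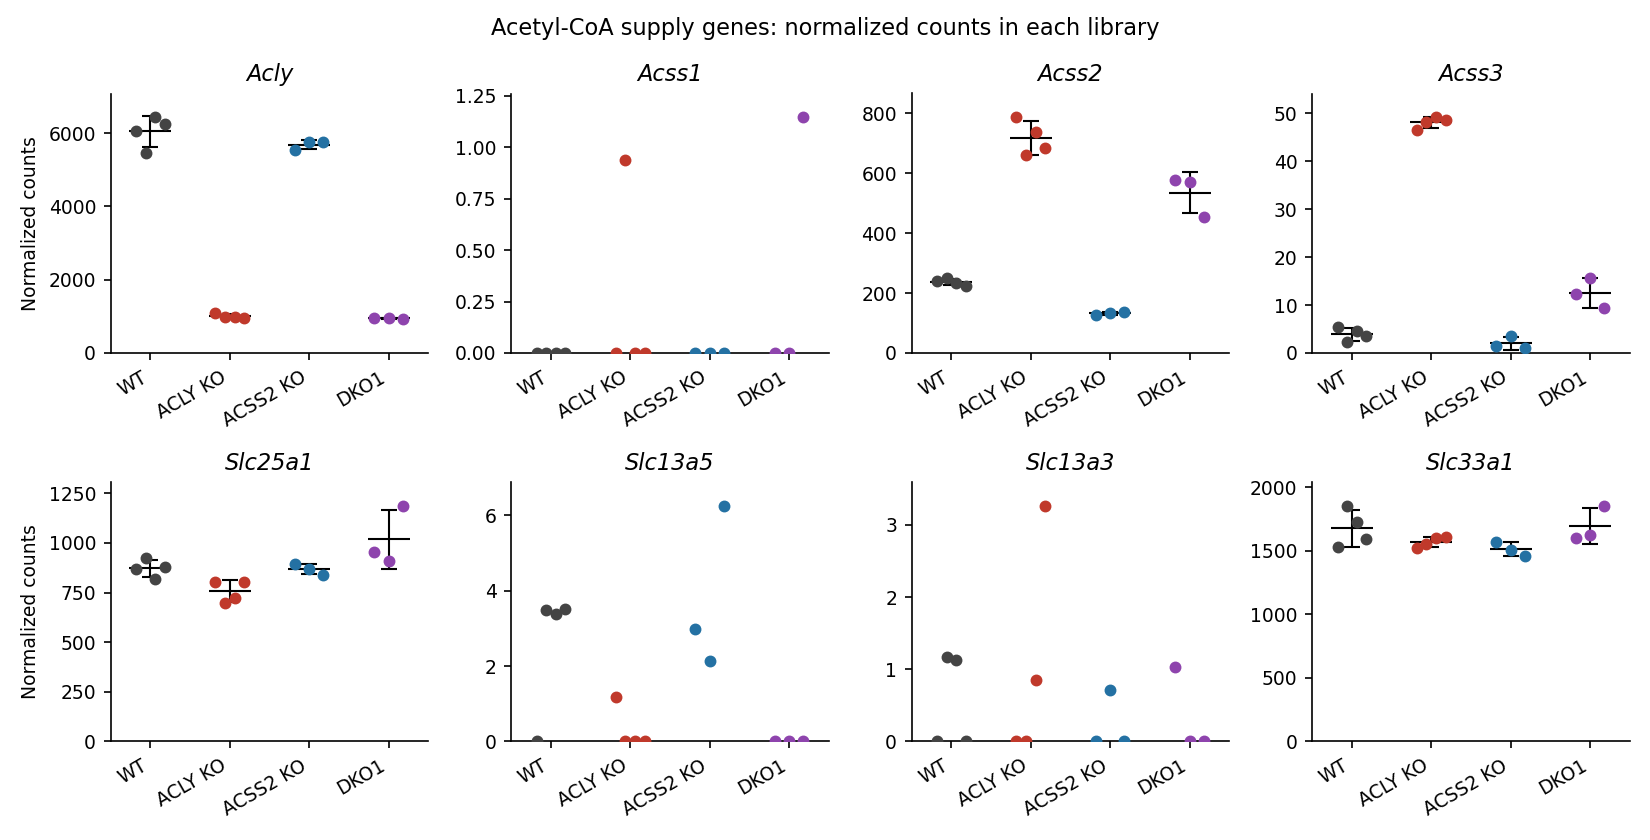
Normalized counts (y axes, linear, each from 0) of the 8 genes in each library, grouped by genotype on the x axes. Points are libraries, and for the 5 genes tested the long bar and whiskers give the mean and SD. Acss2 takes 4 levels that do not overlap, Acss3 stands near 48.1 in ACLY KO and at 5.40 or less in WT and ACSS2 KO, and Acss1, Slc13a5 and Slc13a3 stay at or below 6.26.

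Acss3, on chr10:106933517-107123668, was near the limit of detection in ACLY-proficient cells and higher in ACLY-deficient cells. It had 5.40, 2.21, 4.54 and 3.54 normalized counts in WT, a level of about 3 reads. In ACLY KO it had 46.5, 48.1, 49.2 and 48.5. ACSS2 KO had 1.37, 3.61 and 1.06, and DKO1 had 12.4, 15.6 and 9.41. All 4 ACLY KO libraries lay above all DKO1 libraries, which in turn lay above all WT and ACSS2 KO libraries. The log2 fold change from WT to ACLY KO, on log2(value + 1), was 3.36 (standard error 0.29), and it was 1.47 (standard error 0.32) from WT to DKO1. The step from ACLY KO to DKO1 was -1.89 (standard error 0.32). With so few reads in WT the size depends on the added constant: the rise in ACLY KO was 3.51 with 0.5 added and 2.58 with 5 added, and the rise in DKO1 was 0.97 with 5 added. The gene passed the filter on low values only through the ACLY-deficient libraries, chiefly those of ACLY KO. Its differences that involve ACLY KO or DKO1 are therefore given as a description with no test. It overlaps Ppfia2 on the opposite strand, which was listed at 0 in 13 of 14 libraries.

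Acss1, on chr2:150618105-150668500, encodes the mitochondrial acetate-activating enzyme and was at the limit of detection. It was listed at 0 in 12 of 14 libraries, at 0.94 in ACLY KO replicate 2 and at 1.15 in DKO1 replicate 4. Neither value reached 3 reads, so no level could be compared between genotypes.

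Slc25a1, on chr16:17925223-17928219, was the carrier with a called change. It had 867, 925, 819.6 and 879 normalized counts in WT and 893, 869 and 841 in ACSS2 KO. It had 803, 695, 724 and 804 in ACLY KO and 954, 912 and 1188 in DKO1. WT and ACSS2 KO overlapped, all ACLY KO libraries lay below them, and DKO1 lay above ACLY KO in each of 3 libraries. DKO1 exceeded ACLY KO by 0.42 in log2 (standard error 0.091, adjusted p = 0.0042). DKO1 replicate 4 was the highest library, and without it the difference was 0.30 (adjusted p = 0.0066). A correction for transcript length gave 0.26 (adjusted p = 0.0046), which is over 1.5 times smaller. From WT to ACLY KO the change was -0.21 (95% interval -0.39 to -0.02, adjusted p = 0.059). It did not pass the threshold with all libraries and passed it without DKO1 replicate 3 (adjusted p = 0.048), without DKO1 replicate 4 (adjusted p = 0.0085) and after the length correction (-0.26, adjusted p = 0.0018). From WT to DKO1 it was 0.21 (adjusted p = 0.063), with 0.29 (adjusted p = 0.026) without DKO1 replicate 3 0.097 without DKO1 replicate 4 and 0.0086 after the length correction.

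Slc33a1, on chr3:63933507-63964768, was the most even of the 5 genes tested. It had 1535, 1857, 1729 and 1594 normalized counts in WT and 1527, 1556, 1599 and 1611 in ACLY KO. ACSS2 KO had 1570.1, 1507 and 1463, and DKO1 had 1603, 1627 and 1855. WT overlapped each of the other genotypes, and none of the 5 pairwise differences passed the threshold. The difference farthest from 0 was 0.16, between DKO1 and ACSS2 KO, with a 95% interval from -0.01 to 0.33 (adjusted p = 0.11). ACSS2 KO differed from WT by -0.15 (95% interval -0.31 to 0.02, adjusted p = 0.18). After the length correction both passed, at 0.25 (adjusted p = 0.012) and -0.22 (adjusted p = 0.026).

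The carriers for citrate from outside the cell were scarcely detected. Slc13a5, on chr11:72241989-72267222, was listed at 0, 3.48, 3.37 and 3.52 in WT and at 2.98, 2.15 and 6.26 in ACSS2 KO. It was at 1.18 in ACLY KO replicate 1 and listed at 0 in the other ACLY KO libraries and in all DKO1 libraries. Values above 0 thus stood in 6 of 7 ACLY-proficient and 1 of 7 ACLY-deficient libraries, mostly at or near 3 reads. Slc13a3, on chr2:165405028-165473230, was listed at 0 in 8 of 14 libraries and at no more than 3.27, in ACLY KO replicate 4. Both genes were below the mean of 10 normalized counts set for testing, as was Acss1, so 5 of the 8 genes were tested. When low genes were kept, Slc13a5 passed the threshold in ACLY KO against WT (adjusted p = 0.041) and DKO1 passed against WT (adjusted p = 0.021) and against ACSS2 KO (adjusted p = 0.0060), on these few reads.

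Divided by transcript length, the levels can be compared between genes. In WT the order per kilobase of transcript was Acly (1367 ± 95.5, SD, n = 4), Slc33a1 (533 ± 45.7), Slc25a1 (524 ± 26.1), Acss2 (80.9 ± 3.91) and Acss3 (0.84 ± 0.29). Slc33a1 and Slc25a1 did not differ beyond their spread, and the other steps exceeded it. With the median in place of the longest transcript length Slc33a1 stood higher, at 655. In ACLY KO, Acss2 (245 ± 19.3) and Acly (226 ± 12.7) overlapped between libraries though Acss2 was the higher within each, with Slc33a1 at 499 ± 12.3, Slc25a1 at 454 ± 33.3 and Acss3 at 10.2 ± 0.24. In DKO1, Acly was at 214 ± 2.91 (SD, n = 3) and Acss2 at 182, and Slc25a1 (611 ± 89.5) and Slc33a1 (538 ± 44.2) overlapped. In ACSS2 KO, Acss2 was at 45.1 ± 1.66 and Acly at 1284 ± 27.9.

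The balance of transcripts for the acetyl-CoA-forming enzymes differed between ACLY-proficient and ACLY-deficient cells. Of the summed level per kilobase of Acly, Acss1, Acss2 and Acss3, the part of Acss2 was 5.61% ± 0.63 (SD, n = 4) in WT. In ACSS2 KO it was 3.39% ± 0.05 (SD, n = 3). In ACLY KO it held 50.8% ± 1.07 (SD, n = 4), above the share of Acly in each of 4 libraries, and in DKO1 45.6% ± 2.96 (SD, n = 3), below the share of Acly in each of 3. Acss3 held 2.13% in ACLY KO, 0.66% in DKO1 and 0.057% in WT. The sum itself was 399 ± 26.8 in DKO1 and 481 ± 30.8 in ACLY KO. It was 1330 ± 29.7 for ACSS2 KO and 1449 ± 92.3 for WT. The sum in the ACLY-deficient libraries, at most 524, was thus below the lowest ACLY-proficient sum of 1296. These shares describe mRNA per length. Transcripts of recombined Acly, and of edited Acss2 in ACSS2 KO and DKO1, are counted in them.

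**Figure D2:**
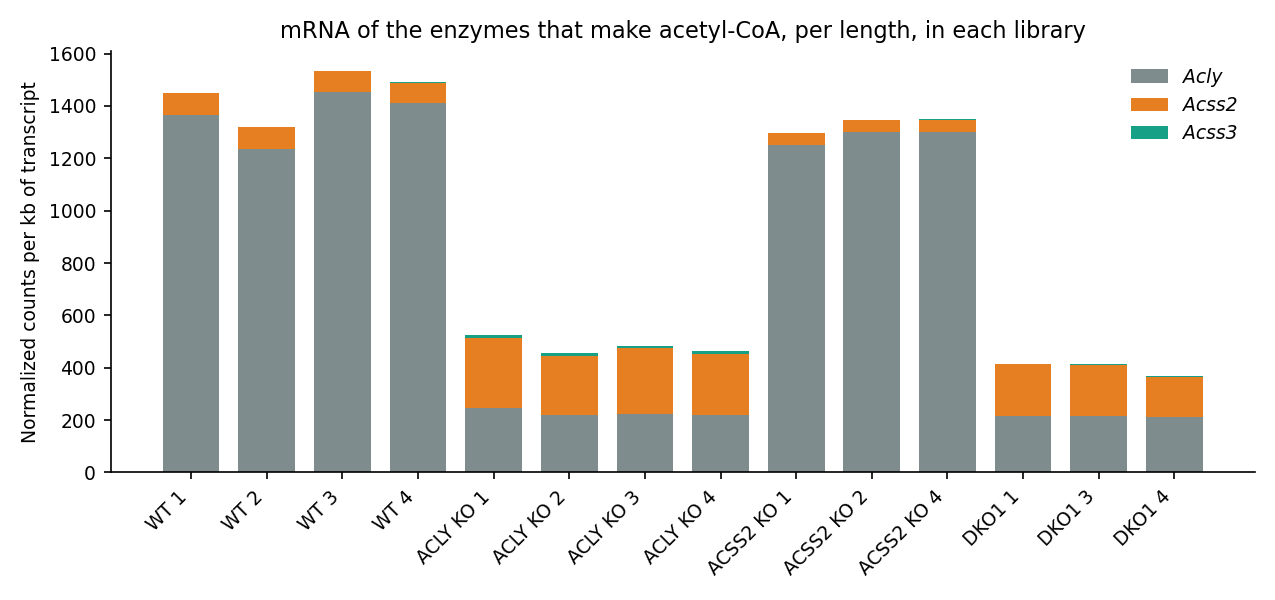
Normalized counts per kilobase of transcript (y axis, linear from 0) of Acly, Acss2 and Acss3, stacked, in each of the 14 libraries (x axis). The orange Acss2 part is 5.61% of the sum in WT on average and 50.8% in ACLY KO, and the whole bar is at most 524 in ACLY-deficient libraries and at least 1296 in the others.

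Loss of ACLY was examined first in ACLY KO against WT. Of the 5 genes tested, 2 rose (Acss2 and Acss3) and 1 fell (Acly), or 3 called, where 48.5% of all 12711 genes tested were called. Acly is the deleted gene and Acss3 was tested only for its level in ACLY-deficient cells, so of the 3 calls that of Acss2 alone was not set by the design or the filter. The median log2 change of the 5 was -0.09, against -0.01 for all genes tested. In DKO1 against ACSS2 KO, which differ in ACLY status on a background of ACSS2 loss, the same 3 genes were called in the same directions, where 53.7% of all genes were (25.9% higher and 27.8% lower). Acss3 differed by 2.23 in log2 there, again as a description. In DKO1 against WT the same 3 genes passed the threshold, where 56.0% of all genes did (27.9% higher and 28.1% lower). In these 2 comparisons too, the Acly and Acss3 calls were set by the design or the filter. Acss2 is edited in DKO1 and in ACSS2 KO, so these calls are not repeated support. With ACLY KO and DKO1 pooled as 7 ACLY-deficient libraries, Acss2 lay between 455 and 787 (median 660.4), against 127 to 252 (median 224) in the 7 ACLY-proficient libraries. Acss3 lay between 9.41 and 49.2 (median 46.5) against 1.06 to 5.40 (median 3.54). The difference in mean log2 level of Acss2 was 1.77, with an exact permutation p of 5.8e-04 (two-sided, 3432 splits), which is the lower limit for groups of this size. That of Acss3 was 2.88, as a description. Slc25a1 (-0.02, p = 0.84) and Slc33a1 (0.02, p = 0.77) did not pass the same exact permutation test, and each overlapped between the groups. The p-values were computed for 5 genes and not adjusted. Each side holds libraries of 2 lines, and DKO1 was made from ACLY-deficient cells, so the 7 libraries are not 7 independent cases of ACLY status. On each side 1 of the lines, ACSS2 KO or DKO1, carries an edit in Acss2, so the Acss2 difference is not of ACLY status alone. Between the lines without that edit, ACLY KO and WT, Acss2 differed by 1.59 in log2.

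Loss of ACSS2 was compared on each background. Acss2 is the gene edited in both comparisons, so its calls below are not free of the design. In ACSS2 KO against WT, Acss2 was the gene called of the 5, lower by 0.84 in log2 (standard error 0.094, adjusted p = 2.8e-05), where 26.0% of all genes tested were called. Acss3 changed by -0.76 there (standard error 0.32, adjusted p = 0.10), and it passed the threshold without WT replicate 2 (-0.95, adjusted p = 0.044) and without ACSS2 KO replicate 2 (-1.11, adjusted p = 0.021). These Acss3 values rest on a few reads, since its means of 3.92 in WT and 2.01 in ACSS2 KO were below 10. In DKO1 against ACLY KO, 2 of the 5 fell (Acss2 and Acss3) and 1 rose (Slc25a1), where 27.9% of all genes were called (14.3% higher and 13.6% lower). Acss3 passed the filter chiefly through its ACLY KO level, so its fall is a description and not a test result. Acss2 fell by 0.43 in log2 (standard error 0.094), and without DKO1 replicate 4, the lowest library, by 0.32 (adjusted p = 0.0095). The 2 comparisons share no library, but both come from 1 fit over all 14 libraries with a shared spread, so they are not independent.

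The difference between these effects, as an interaction in the same fit, was called for 2 of the 5 genes, where 27.1% of all genes were called. Acss2 is the gene edited in ACSS2 KO and DKO1, each a single-cell clone. For Acss2, ACLY status and the edit of each clone therefore cannot be told apart. For Acss2 the interaction was 0.41 in log2 (standard error 0.13, adjusted p = 0.038): the transcript was lower by 0.84 where ACLY was present and by 0.43 where it was absent. This call was lost in 11 of the 14 fits that left out a library, with adjusted p between 0.053 and 0.088, and held without WT replicate 4, ACLY KO replicate 1 or DKO1 replicate 4. For Slc25a1 it was 0.43 (standard error 0.13, adjusted p = 0.026), from -0.01 in ACSS2 KO against WT and 0.42 in DKO1 against ACLY KO. It was lost without ACLY KO replicate 2, ACLY KO replicate 3, ACSS2 KO replicate 2 or ACSS2 KO replicate 4, with adjusted p between 0.055 and 0.067. Equal library totals ended both calls, at 0.26 (adjusted p = 0.27) for Acss2 and 0.28 (adjusted p = 0.067) for Slc25a1, with the median of all genes moved to -0.16. For Acss3 the interaction of -1.13 (95% interval -2.10 to -0.16) was not called, and it is a description because of the filter.

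**Figure D3:**
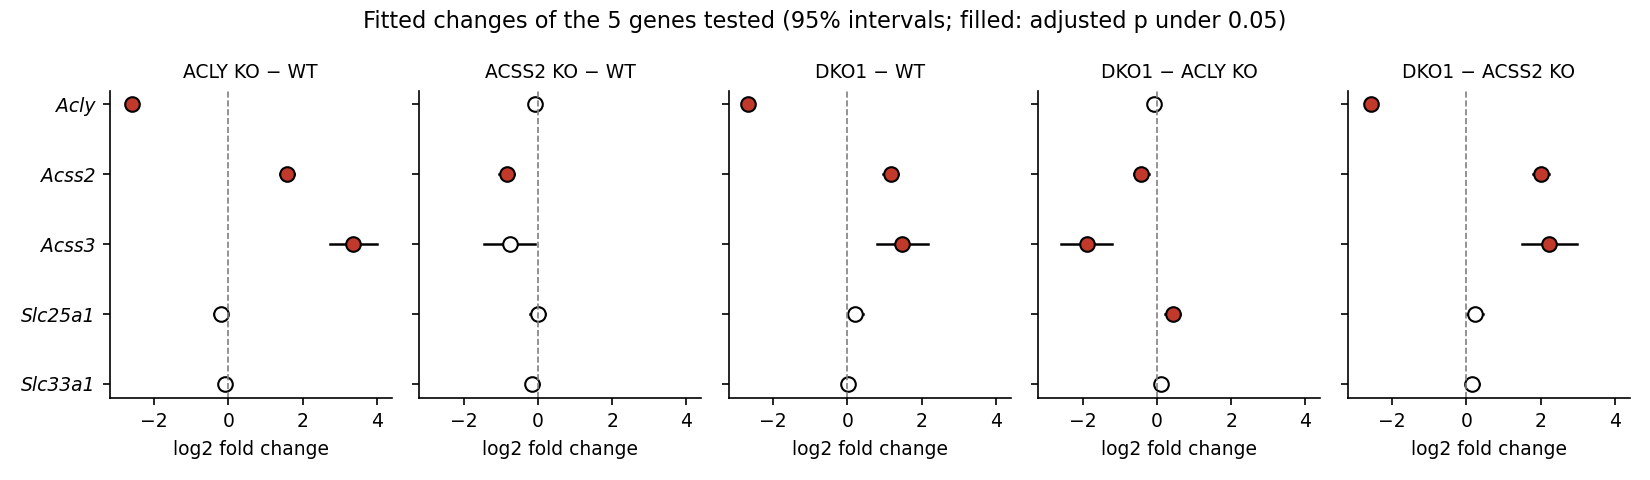
Log2 fold change (x axes) of the 5 genes tested in 5 comparisons, with 95% intervals as bars and filled points for an adjusted p under 0.05. Acly, Acss2 and Acss3 are called in the 3 panels that set ACLY-deficient against ACLY-proficient cells, Acly being the deleted gene and Acss3 tested only for its ACLY-deficient level, Slc25a1 only in DKO1 against ACLY KO, and Slc33a1 in none of the 5.

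Other genes followed the 5 tested across the 14 libraries. Among those with a mean of 50 or more, the 3 closest to Acss2 by Pearson's r of log2(value + 1) were Prkar2b (0.993), which encodes a regulatory subunit of protein kinase A, Ctbs (0.991), a lysosomal chitobiase gene, and Pbx3 (0.990), a homeobox gene. Prkar2b averaged 164 normalized counts in ACSS2 KO, 293 in WT, 704 in DKO1 and 1052 in ACLY KO. Acly was followed most closely by Ncs1 (0.998), a neuronal calcium sensor gene, Fam189b (0.997) and Arhgef26 (0.997), Acss3 by Nrcam (0.984), a cell adhesion gene, Lynx1 (0.975) and Fam107a (0.974). Nrcam averaged 14.5 in ACSS2 KO, 18.7 in WT, 49.5 in DKO1 and 198 in ACLY KO. For Slc25a1 they were Tbce (0.958), a tubulin chaperone gene, Ppp2r3d (0.955) and Fdft1 (0.947), which encodes squalene synthase, and for Slc33a1 Zc3h15 (0.927), Fkbp1a (0.907) and Ube2g2 (0.904). Among the 8 genes themselves Acss2 and Acss3 had r = 0.94, and Acss2 and Acly r = -0.92. These correlations run over libraries of 4 genotypes, so they describe shared steps between genotypes, and no test was made of them.

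Genes upstream of citrate rose more often than they fell in ACLY KO. Of 15 genes from pyruvate to citrate, 8 rose and 2 fell against WT, with a median of 0.29 against -0.01 for all genes, where 23.8% of all genes rose and 24.7% fell. Pdp1, a phosphatase that activates pyruvate dehydrogenase, rose by 0.69. The kinases that inactivate that complex did not move together, since Pdk2 rose by 0.70 (adjusted p = 8.2e-04) and Pdk3 fell by 0.45 (adjusted p = 3.5e-04). In ACSS2 KO against WT, where 26.0% of all genes were called, 3 rose and 2 fell, with Pdk2 higher by 1.56 (adjusted p = 6.9e-06) and Pdk1 lower, at -0.70 (adjusted p = 4.3e-06). In DKO1 against ACLY KO, where 27.9% of all genes were called, 2 rose and 4 fell, with Pdha1, a subunit of the complex, higher by 0.54 and Pdk3 lower, at -0.78 (adjusted p = 2.9e-05).

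Among 11 genes for the exchange of citrate, malate and oxaloacetate, 4 rose and 3 fell in ACLY KO, where 23.8% of all genes rose and 24.7% fell. Slc25a13, which encodes an aspartate-glutamate carrier, had between 1763 and 1984 normalized counts in WT, between 2042 and 2120.3 in ACSS2 KO, between 727 and 821 in DKO1 and between 434 and 512 in ACLY KO. It was lower in ACLY KO than in WT, with a log2 change of -2.02 (adjusted p = 1.7e-10), and higher in DKO1 than in ACLY KO by 0.73 (adjusted p = 1.3e-05). Mdh1, cytosolic malate dehydrogenase, rose by 0.87 (adjusted p = 5.0e-05) and Got2 by 0.41, and Got1 fell by 0.39, the last 2 being mitochondrial and cytosolic aspartate aminotransferase. Me1, malic enzyme, had a mean of 11204 in DKO1 and 7927 in ACLY KO, higher by 0.50 (adjusted p = 2.4e-05), and 4 of the 11 rose and 3 fell in that comparison, where 27.9% of all genes were called. In ACSS2 KO against WT, where 26.0% of all genes were called, 1 rose and 1 fell. Both calls, Slc25a12 at 0.19 and Me1 at -0.17, were lost without WT replicate 2 (adjusted p = 0.061 and 0.073).

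Of 11 genes for acetate transport and formation 8 were tested, and 3 rose and 2 fell in ACLY KO, where 48.5% of all genes were called. Slc16a3, which encodes the monocarboxylate carrier MCT4, had 1628, 1577, 1562 and 1766 normalized counts in WT and 501, 566 and 549 in ACSS2 KO. It had 152, 138, 123 and 137 in ACLY KO and 125, 110.1 and 127 in DKO1, so neither WT nor ACSS2 KO overlapped another genotype. Its log2 change was -3.56 in ACLY KO (adjusted p = 9.8e-12) and -1.60 in ACSS2 KO (adjusted p = 8.1e-08). The aldehyde dehydrogenases, which can form acetate, were mixed: in ACLY KO Aldh2 rose by 0.49 and Aldh3a2 by 0.36, while Aldh1b1 fell by 1.73 from a WT mean of 26.8. In DKO1 against ACLY KO 1 rose and 4 fell, beside 27.9% of all genes called, with Aldh2 lower, at -0.93 (adjusted p = 3.3e-06), and Aldh3a2 higher by 0.31. In ACSS2 KO against WT 3 rose, among them Aldh3a2 at 0.48, and 1 fell, beside 26.0% of all genes called.

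The acetylcarnitine route moves acetyl and acyl groups across the mitochondrial membrane. Of its 6 genes 3 rose and 1 fell in ACLY KO, where 48.5% of all genes were called: Cpt2, carnitine palmitoyltransferase 2, was higher by 0.55 (adjusted p = 5.0e-06), Crot by 0.39 and Slc25a20, the carnitine carrier, by 0.24, while Cpt1a fell by 0.44. In ACSS2 KO 3 rose and none fell, with Cpt2 at 0.31 and Crot at 0.33, beside 26.0% of all genes called. In DKO1 against ACLY KO 1 rose, Cpt2 at 0.23 (adjusted p = 0.016), beside 27.9% of all genes called. Crat, which encodes carnitine acetyltransferase, is named here after its values were seen. It averaged 1103 in ACSS2 KO, 1140 in WT, 1242 in ACLY KO and 1547 in DKO1. It differed by 0.43 (adjusted p = 0.0047) between DKO1 and WT and by 0.30 (adjusted p = 0.057) between DKO1 and ACLY KO. The second passed the threshold without DKO1 replicate 4 (adjusted p = 6.7e-04) and without WT replicate 2 (adjusted p = 0.038). In DKO1 against WT 4 of the 6 rose and 1 fell, where 56.0% of all genes were called, and Cpt1a was the one that fell, by 0.81.

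Of 13 tested genes for users of acetyl-CoA in the cytosol and nucleus, 3 rose and 1 fell in ACLY KO, where 48.5% of all genes were called. After the length correction 5 rose and 4 fell there. In ACSS2 KO 0 rose and 3 fell, where 26.0% of all genes were called, and in DKO1 against ACLY KO 2 rose and 2 fell, where 27.9% were. Acat2, cytosolic thiolase, averaged 3134 in ACSS2 KO, 3784 in WT, 5088 in ACLY KO and 7997 in DKO1, and passed the test in each of these comparisons. Acacb, an acetyl-CoA carboxylase gene, rose by 1.59 in ACLY KO (adjusted p = 6.4e-06) from a WT mean of 17.9, Kat2a, a histone acetyltransferase gene, rose by 0.35 and Gnpnat1 fell by 0.41. Hmgcs1, which encodes HMG-CoA synthase of sterol synthesis, was lower in ACSS2 KO, at -0.49 (adjusted p = 1.7e-04). Sat1, spermidine acetyltransferase, exceeded its ACLY KO level in DKO1 by 1.43 (adjusted p = 4.4e-04). Of 8 genes for acetylation in the secretory pathway and lysosome 4 symbols were listed and 3 tested. Casd1, a sialic acid O-acetyltransferase gene, averaged 81.5 in DKO1, 389 in ACSS2 KO, 413 in WT and 570 in ACLY KO. It rose by 0.46 in ACLY KO (adjusted p = 2.7e-04) and stood lower in DKO1 than in ACLY KO, at -2.79 (adjusted p = 6.5e-10). Hgsnat, a lysosomal acetyltransferase gene, fell by 0.34 in ACLY KO. Atg9a was higher by 0.42 in ACSS2 KO, a call lost without WT replicate 2 (adjusted p = 0.090).

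Of 14 tested regulators of ACLY and the ACSS enzymes, 3 rose and 2 fell in ACLY KO, where 48.5% of all genes were called. In ACSS2 KO 2 rose and 1 fell, beside 26.0% of all genes, and in DKO1 against ACLY KO 3 rose and 3 fell, beside 27.9%. Sirt1, a deacetylase gene, had between 369 and 479 normalized counts in WT and between 97.2 and 106 in ACLY KO, a log2 change of -2.06 (adjusted p = 5.7e-09). Klhl25, which encodes an adaptor for ACLY ubiquitination, fell by 0.38. Insig1, whose product retains the sterol-sensing complex in the endoplasmic reticulum, averaged 2442 in ACSS2 KO, 3922 in WT, 4696 in ACLY KO and 7265 in DKO1. It changed by 0.26 in ACLY KO, by -0.68 in ACSS2 KO (adjusted p = 1.5e-05) and by 0.63 in DKO1 against ACLY KO (adjusted p = 3.5e-05). Insig2 was higher by 0.28 in ACSS2 KO and by 0.35 in DKO1 against ACLY KO. Mbtps1, a protease gene of the same system, was higher by 0.30 in ACLY KO, a call lost without WT replicate 2 (adjusted p = 0.070).

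Of 11 relatives of the acyl-CoA synthetases and carriers 3 were tested. Acsf2 averaged 33.3 in ACLY KO, 43.7 in DKO1, 184 in WT and 320.3 in ACSS2 KO, with log2 changes of -2.42 in ACLY KO (adjusted p = 1.2e-09) and 0.81 in ACSS2 KO. Acsf3, malonyl-CoA synthetase, rose by 0.34 in ACLY KO and stood below its ACLY KO level in DKO1, at -2.02 (adjusted p = 3.5e-08). Aacs, acetoacetyl-CoA synthetase, was lower in ACSS2 KO, at -0.61 (adjusted p = 1.6e-05).

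**Figure D4:**
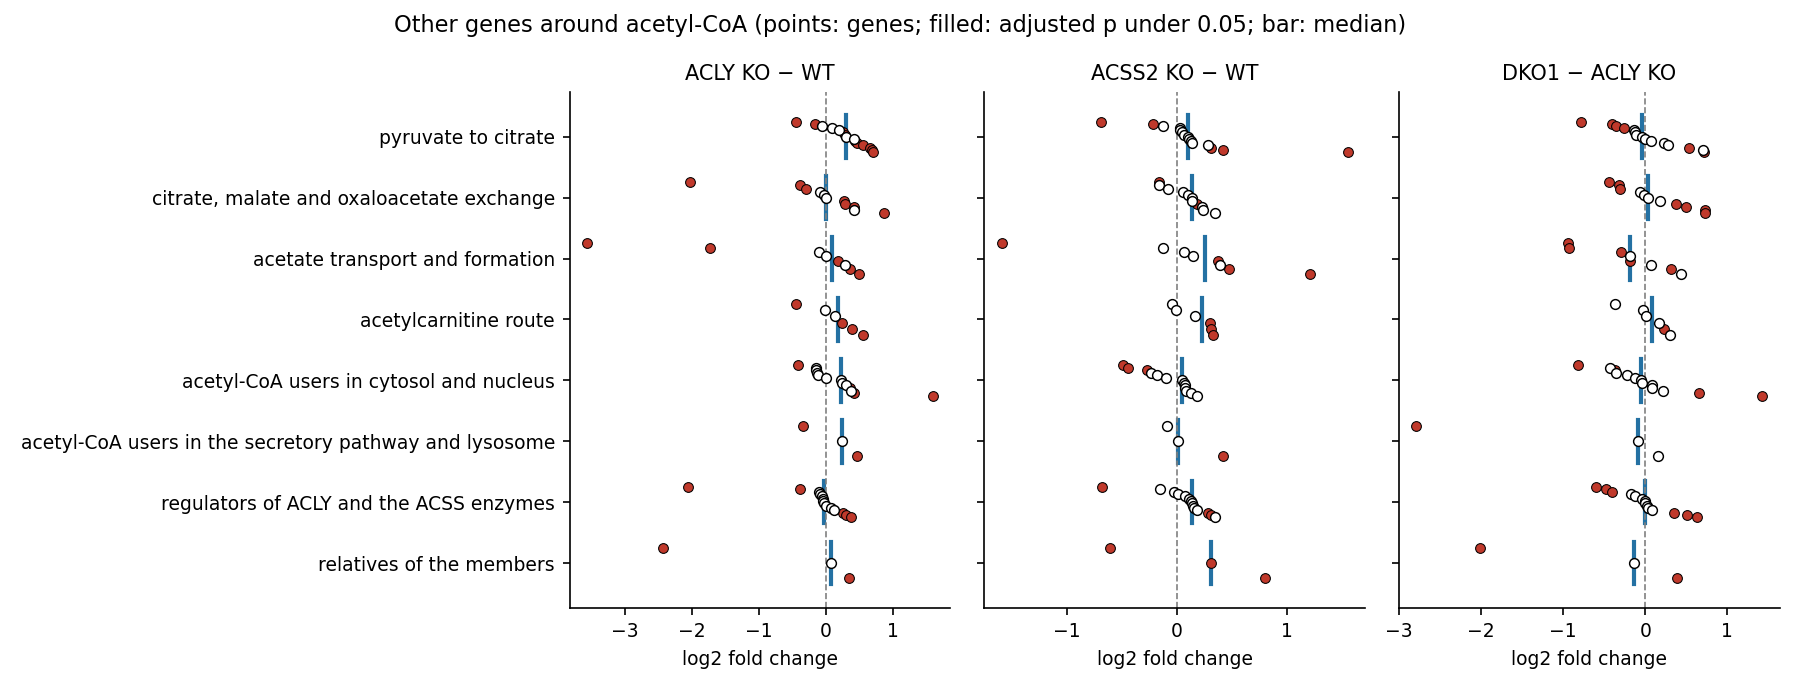
Log2 fold change (x axes) of the tested genes of 8 lists (rows) in 3 comparisons. Each point is a gene, filled for an adjusted p under 0.05, and the blue bar is the list's median. The farthest points in ACLY KO against WT are Slc16a3 at -3.56, Acsf2 at -2.42, Sirt1 at -2.06 and Slc25a13 at -2.02.

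The genes that lie around them on the chromosome were compared as well. The median log2 change of 105 tested genes within 5 Mb of Acss2 was 0.17 in ACLY KO against WT and 0.06 in DKO1 against ACLY KO, where Acss2 itself changed by 1.59 and -0.43. For 18 genes around Acss3 the medians were -0.29 and -0.24, where Acss3 changed by 3.36 and -1.89. For 93 genes around Slc25a1 the median in DKO1 against ACLY KO was 0.0039, where Slc25a1 changed by 0.42. For 24 genes around Slc33a1 the medians lay farther from 0 than the gene in these comparisons, at -0.22 in ACSS2 KO against WT, where Slc33a1 changed by -0.15, and at -0.28 in DKO1 against WT, where it changed by 0.01. All 629 tested genes of chromosome 3 had a median of -0.23 in ACSS2 KO against WT. Around Acss2 the medians were higher in DKO1 against WT and against ACSS2 KO, at 0.25 and 0.32, where Acss2 changed by 1.16 and 2.00. The 1007 other tested genes of chromosome 2 had medians of 0.28 and 0.33 in these comparisons.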

How the data were processed

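RNA-seq values were analysed for 14 libraries of mouse HCC cells, grouped by genotype from the sample labels. The authors sequenced poly(A) RNA with a directional kit and mapped the single-end reads to GRCm38 with STAR. The deposited signal is a read count divided, by the authors, by a DESeq normalization factor (DESeq2 software 1.0.1), and is not whole reads. Read counting, its use of strand and the annotation are not given in the sources used here. The 8 genes and all lists were chosen with earlier results of these data known.

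Differences were tested with limma 3.58.1 (R 4.3.3, intensity trend) on log2(value + 1). The 12711 genes tested had means of 10 or more, with all 14 libraries in the fit and Benjamini-Hochberg adjustment over all genes tested. A gene was called at an adjusted p under 0.05. The interaction was (DKO1 - ACLY KO) - (ACSS2 KO - WT). Of each pathway list, the genes named were up to 4 with the smallest adjusted p in ACLY KO against WT and up to 2 in each of the other comparisons. A gene so chosen is not reported here. Levels per kilobase used the longest GENCODE transcript that has a RefSeq match, and promoters came from RefSeq. Counting error could not be computed, so precision is the spread between libraries. Replicate numbers were not used to pair the samples in the main fit. Of 18 same-numbered pairs 5 had correlated deviations over 0.1, in a range from -0.43 to 0.45, which does not settle whether same-numbered libraries belong together. The procedure was tested on simulated data. Alternatives covered the constant, filters, scaling, a length correction, a replicate block, array weights and left-out libraries. Leaving out DKO1 replicate 4 and WT replicate 2 together was chosen after seeing the data.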

Additional observations from a re-analysis of the deposited data

Results flagged for a closer look

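In ACLY KO, replicate 1 had 1084 normalized counts of Acly against 971, 984 and 965 in the other libraries. Its gap to the nearest library was 0.846 of the genotype's range, more than the critical value for 4 samples, which chance passes in about 1 in 20 groups.

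In the main fit the difference in Acss2 with its edit was not equal in ACLY-deficient and ACLY-proficient cells. The interaction was 0.407 in log2 (adjusted p = 0.038 from limma). The same test gave 0.428 (adjusted p = 0.026) for Slc25a1. For Acss2, the edited gene, ACLY status and the edit of each single-cell clone cannot be told apart. Neither call was stable. Of the 14 fits that left out a library, 11 lost the Acss2 call and 4 the Slc25a1 call, and equal library totals ended both.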

How the results depend on the processing

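Of the 6 counts of called genes among the 5 tested, 4 stayed within 1.5 times under every alternative run: ACLY KO, DKO1 and DKO1 against ACSS2 KO or ACLY KO, where 3 to 4 were called when a library was left out. Among the genes called in these 4 counts were Acly, the deleted gene, Acss2, edited in DKO1 and ACSS2 KO, and Acss3. The filter kept Acss3 only for its ACLY-deficient level, so the steadiness of these counts is partly set by the design. In ACSS2 KO against WT the count went from 1 to 4 with the length correction and with array weights, to 3 without DKO1 replicate 4 and WT replicate 2 together, and lay between 1 and 2 with a library left out. For the interaction it went from 2 to 1 without a filter on low values or with a replicate block and to 0 with equal library totals, and lay between 0 and 2 with a library left out. The replicate block gave 0.39 (adjusted p = 0.068) for the Acss2 interaction, and of the calls made for the 5 genes it changed no other. The deviations of same-numbered libraries had correlations from -0.43 to 0.45. The causes were not tested.

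Some uncalled values near 0 turned sign. Equal library totals gave 0.021 for Slc33a1 in ACLY KO, 0.019 for Acly and 0.099 for Slc25a1 in ACSS2 KO, -0.14 for the Acly interaction and 0.022 for Slc25a1 in ACLY-deficient against ACLY-proficient libraries. This setting moved the median of all genes to 0.10 for ACLY KO against WT, 0.11 for ACSS2 KO against WT and -0.16 for the interaction. Quantile normalization gave 0.032 for Acly in ACSS2 KO, -0.12 for the Acly interaction and 0.0071 for Slc25a1 by ACLY status. Array weights gave 0.0087 for Slc25a1 in ACSS2 KO and -0.022 for Slc33a1 in DKO1 against WT. The length correction gave 0.0068 for Acly in DKO1 against ACLY KO, and the replicate block -0.024 for the Acly interaction. Leaving out DKO1 replicate 4 and WT replicate 2 together gave 0.021 for Slc25a1 in ACSS2 KO and -0.0023 for Slc33a1 in DKO1 against WT. With a library left out the ranges were -0.037 to 0.021 for Slc25a1 in ACSS2 KO, -0.052 to 0.064 for Slc33a1 in DKO1 against WT, -0.024 to 0.055 for the Acly interaction, and -0.10 to 0.026 for Slc25a1 and -0.015 to 0.053 for Slc33a1 by ACLY status.

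Over all genes, 3311 were called in ACSS2 KO against WT, and 5349 with the length correction, 6897 with array weights, 5086 without DKO1 replicate 4 and 6089 without both doubted libraries. In DKO1 against ACLY KO 3550 were called, 2168 when the fit used these genotypes alone and 5519 without both libraries. The interaction had 3442, and 5324 and 5611 with array weights and without both libraries. Without both libraries, 6 genes rose and 2 fell from pyruvate to citrate in ACSS2 KO, 5 and 2 for citrate exchange, and 5 and 2 among regulators. For Acss1, Slc13a5 and Slc13a3, low expression and the limit set by depth cannot be told apart.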
